A study of Mus musculus with 2 samples.

Results

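The vascular endothelial growth factor (VEGF) ligands and receptors were described in single cells of mouse liver. The 9 genes were chosen by name, as the 3 receptor kinases Kdr, Flt1 and Flt4, the 2 co-receptors Nrp1 and Nrp2 and the 4 ligands Vegfa, Vegfb, Vegfc and Pgf, out of 32285 genes in each count table. All 9 were in both tables, and 8 of the 9 had at least 50 unique molecular identifiers (UMIs, counted transcript molecules) in endothelial cells, with Pgf under that minimum. The study profiled sorted endothelial and hematopoietic cells from livers at postnatal day 15 by droplet sequencing, in 1 control and 1 c-Maf KO library. Each library pooled 1 male and 1 female mouse. The labels of the second library name endothelial c-Maf KO, taken here as loss of Maf in endothelial cells. Neither the Cre driver nor the strain is given in the sources used here.

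VEGF ligands are secreted proteins that bind receptor tyrosine kinases on endothelial cells. VEGF-A binds KDR, the main signalling receptor of blood vessels, and FLT1, which binds it tightly but signals weakly and is often called a decoy. VEGF-B and placental growth factor (Pgf) bind FLT1, and VEGF-C binds FLT4 and, once cleaved, KDR. The neuropilins NRP1 and NRP2 are co-receptors that also bind class 3 semaphorins. FLT4 is best known in lymphatic vessels and is also made by the sinusoidal endothelium, the fenestrated capillaries of the liver. VEGF-A made by hepatocytes, a cell type this sort did not target, is known to maintain sinusoidal fenestrae.

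Endothelial cells were the authors' clusters S, S2, KOS_1, KOS_2 and KOS_3 (taken as sinusoidal), C-EC (cycling) and PV (large vessel), with 2948 control and 2991 c-Maf KO cells. Sinusoidal markers summed to between 7786 and 12608 CPM (UMIs of a gene scaled to 1000000 summed UMIs) in control S, S2 and C-EC and in PV to 1304, and to between 1474 and 2533 in the KOS clusters. KOS_2 held 915 CPM of 5 megakaryocyte markers, against 43.2 to 89.1 in the other endothelial clusters of the c-Maf KO library, and was placed by its name alone. The endothelial sums were 16238502 and 22621086 UMIs. The libraries shared 21 cell barcodes. Markers of other cells found in endothelial cells moved between the libraries, with Kupffer markers at 307 and 30.2 CPM, hepatocyte markers at 159 and 48.6, stellate and mesenchymal markers at 55.0 and 22.2 and B lineage markers at 51.7 and 120. Their part in the results was not tested, and without the 10% of endothelial cells richest in such transcripts the same 6 members passed the size rule. With 1 library a group, no test was possible, each comparison is between these libraries, and each 95% interval covers counting error only.

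In endothelial cells 5 members were lower and 1 was higher in the c-Maf KO library. The 5 lower members were Flt1, Flt4, Nrp2, Vegfa and Vegfb, the higher one was Vegfc, and Kdr and Nrp1 passed in neither direction. A call needed a difference of at least 1.5-fold and at least 50 UMIs over both sums, with no test behind it. Of all 11927 genes with that many UMIs, 15.9% were lower and 14.4% higher. The median log2 ratio (c-Maf KO over control, here and below) was -0.79 over the 8 members and -0.08 over all genes measured. Maf itself had 2070 CPM in control and 162 CPM in c-Maf KO endothelial cells. Fewer transcripts in a sum can mean fewer expressing cells or fewer transcripts a cell, and shares of cells are given below where the depth allows it.

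**Figure D1:**
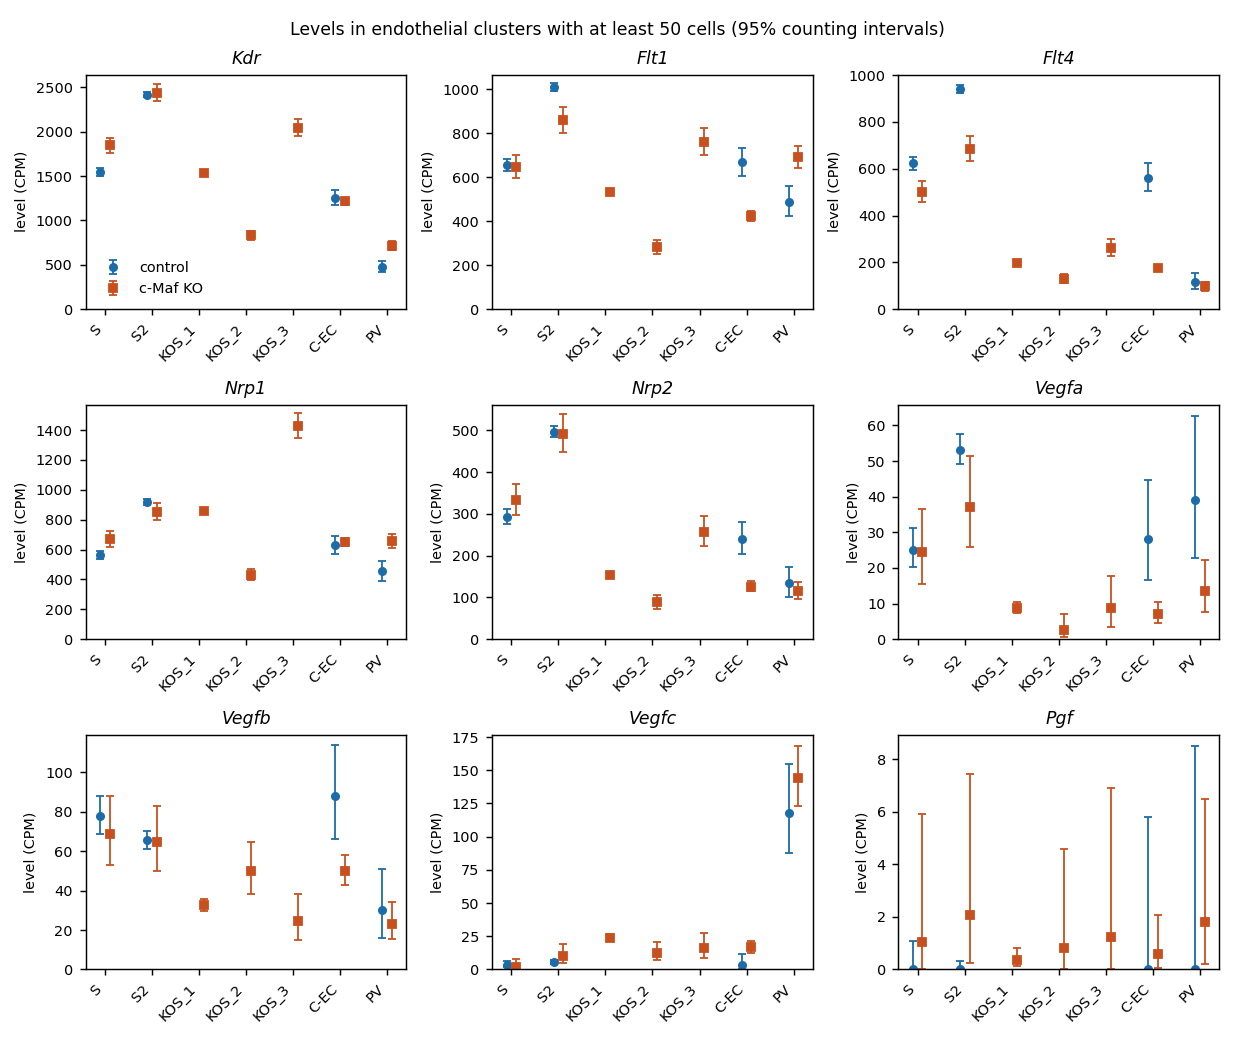
Levels of the 9 members in CPM (y axis) in each endothelial cluster with at least 50 cells in that library (x axis). Circles are the control library, squares the c-Maf KO library and bars exact Poisson 95% intervals. Flt4 and Nrp2 have c-Maf KO squares in the KOS clusters and C-EC below the control levels of S and S2. Nrp1 is highest in KOS_3 (1428 CPM), and Vegfc has its highest level in PV of both libraries, at 117 and 144 CPM.

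Promoter windows are shown for Nrp2 and Vegfa, which were lower, and for Vegfc, which was higher, because these members moved in opposite directions. They come from RefSeq windows on GRCm38.p6 that run from 250 bases before a start to the start. All 9 members matched a window, 11 windows in all. Bases in exons of the GENCODE M21 annotation are not printed, and the windows of Flt4 and Pgf lie wholly in such exons. Capitals mark the GC box, searched as GGGCGG on both strands. Nrp2 lies on chromosome 1 (chr1:62703067-62703284, plus strand, 218 bases), Vegfa on chromosome 17 (chr17:46032378-46032627, minus strand) and Vegfc on chromosome 8 (chr8:54077282-54077531, plus strand).
Nrp2: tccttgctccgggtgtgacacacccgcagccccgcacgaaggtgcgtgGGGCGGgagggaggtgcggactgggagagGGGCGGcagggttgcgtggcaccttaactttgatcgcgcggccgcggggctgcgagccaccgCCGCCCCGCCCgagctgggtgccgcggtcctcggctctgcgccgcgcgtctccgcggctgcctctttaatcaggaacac
Vegfa: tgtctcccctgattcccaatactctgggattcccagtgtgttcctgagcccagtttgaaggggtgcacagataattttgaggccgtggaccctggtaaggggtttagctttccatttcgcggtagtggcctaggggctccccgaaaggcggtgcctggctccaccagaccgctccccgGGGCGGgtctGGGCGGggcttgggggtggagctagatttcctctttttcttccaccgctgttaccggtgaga
Vegfc: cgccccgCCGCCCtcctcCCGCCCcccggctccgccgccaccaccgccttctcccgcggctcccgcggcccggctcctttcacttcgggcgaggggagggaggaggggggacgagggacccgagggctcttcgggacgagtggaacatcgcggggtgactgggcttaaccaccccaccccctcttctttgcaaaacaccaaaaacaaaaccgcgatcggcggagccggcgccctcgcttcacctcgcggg
Motifs were counted over whole windows, exon bases included. A GC box was present in at least 1 window of all 9 members, and in 10 of their 11 windows, against 32.7% of all 32851 windows of this length. TGCTGA, the half-site that Maf proteins recognise, was searched on both strands and was in 0 of the 11 windows, against 16.1% of all windows. ACGTG, the core of the hypoxia response element, was in 1 of the 11 windows, in annotated exon bases before a second Vegfa start, against 16.6% of all windows. The 3 printed windows, of members that were higher and lower, all held GC box letters.

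Kdr encodes the main receptor of VEGF-A in blood vessels (chromosome 5, from 75932827 to 75978458, minus strand; GRCm38, GENCODE M21). Its level in endothelial cells was 2130 CPM in control and 1480 CPM in c-Maf KO, from 34592 and 33483 UMIs. The log2 ratio was -0.53 (95% interval -0.55 to -0.50), a 1.44-fold difference that stayed under the size rule. Among the endothelial clusters of the control library Kdr was highest in S2 (2417 CPM), then S (1546), C-EC (1258) and PV (477), with no overlap between the intervals of neighbours in this order. The c-Maf KO order was 2439 CPM in S2, 2045 in KOS_3, 1846 in S, 1540 in KOS_1, 1215 in C-EC, 832 in KOS_2 and 713 in PV, again without overlap. Kdr therefore varied more between clusters of 1 library than between libraries.

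Flt1, the gene of the VEGF receptor often called a decoy (chromosome 5, from 147561604 to 147726011, minus strand), had 905 CPM in control and 537 CPM in c-Maf KO endothelial cells. The log2 ratio was -0.75 (-0.79 to -0.72). Control levels were 1009 CPM in S2, 667 in C-EC, 654 in S and 488 in PV. In the other library they were 858 in S2, 761 in KOS_3, 689 in PV, 645 in S, 533 in KOS_1, 423 in C-EC and 281 in KOS_2. Large vessel cells thus stood last of these clusters in the control library, where S and C-EC overlapped. They stood behind S2 and KOS_3 alone in the c-Maf KO library, where the intervals of PV overlapped those of S and KOS_3.

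Flt4, the receptor gene of VEGF-C (chromosome 11, from 49609263 to 49652739, plus strand), had the largest difference of the 5 receptor and co-receptor genes. Its level was 835 CPM in control and 222 CPM in c-Maf KO endothelial cells, a log2 ratio of -1.91 (-1.96 to -1.87), which lies at percentile 1.76 of all genes measured. In the control library it was 941 CPM in S2, 623 in S, 561 in C-EC and 117 in PV. The c-Maf KO levels were 685 in S2, 500 in S, 261 in KOS_3, 198 in KOS_1, 176 in C-EC, 130 in KOS_2 and 96.7 in PV. Among neighbours in these orders the intervals overlapped for S with C-EC in the control library and KOS_2 with PV in the other. C-EC, present under 1 name in both libraries, had a level 3.19-fold lower in the c-Maf KO library.

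The Flt4 difference was also visible as a share of cells. With each cell thinned to 1000 UMIs, 50.1% of 2659 control cells had a Flt4 UMI (48.2% to 52.0%), against 17.6% of 2802 in the c-Maf KO library (16.2% to 19.1%). Unthinned cells, with medians of 4985.5 and 7320 UMIs, gave 78.3% and 62.1%. Kdr was found in 80.1% and 69.5% of the thinned cells. Among thinned cells with a Kdr UMI, 53.1% of 2131 in the control had Flt4 too (51.0% to 55.3%), against 20.2% of 1947 in the c-Maf KO library (18.4% to 22.0%). In B lineage cells, taken as background for free RNA, the thinned Flt4 shares were 0.808% and 0.124%, and without thinning 3.78% and 0.901% (medians of 3662.5 and 2990 UMIs). All 4 endothelial shares lay above that background.

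Nrp1 and Nrp2, the co-receptor genes, did not move alike. Nrp1 (chromosome 8, from 128358604 to 128503363, plus strand) had 818 CPM in control and 804 CPM in c-Maf KO endothelial cells, a log2 ratio of -0.03 (-0.06 to 0.01). Nrp2 (chromosome 1, from 62703285 to 62818695, plus strand) had 433 and 170 CPM, a log2 ratio of -1.35 (-1.41 to -1.29). After thinning, 48.3% of control cells had a Nrp1 UMI and 33.9% a Nrp2 UMI, against 50.1% and 15.5% in the c-Maf KO library. By cluster, Nrp2 had 497 CPM in S2, 293 in S, 240 in C-EC and 134 in PV of the control library. Among c-Maf KO clusters it had 492 in S2, 333 in S, 256 in KOS_3, 154 in KOS_1, 126 in C-EC, 115 in PV and 88.1 in KOS_2. Nrp1 had its highest level in KOS_3, at 1428 CPM (1347 to 1513), against 919 in S2 of the control library and 856 in KOS_1.

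Ratios of UMIs between 2 members in the same cells do not depend on how the libraries were scaled. They were used to compare clusters, since levels of different genes are not comparable without a correction for transcript length and capture. Flt4 per Kdr UMI was 0.392 (0.384 to 0.400) in control and 0.150 (0.145 to 0.154) in c-Maf KO endothelial cells. It was 0.446 and 0.145 in C-EC, and 0.130 in the KOS clusters together. Nrp2 per Nrp1 UMI was 0.529 (0.514 to 0.545) in control and 0.211 (0.204 to 0.219) in c-Maf KO cells, with 0.382 and 0.193 in C-EC and 0.181 in the KOS clusters together. Nrp1 per Kdr UMI went the other way over all endothelial cells, from 0.384 (0.377 to 0.392) to 0.543 (0.534 to 0.553). It was 0.564 in the KOS clusters together, with 0.698 in KOS_3. In C-EC this ratio was 0.5 (0.442 to 0.564) in control and 0.536 (0.510 to 0.565) in c-Maf KO cells. It was 0.378 and 0.356 in S and S2 together, and 0.952 and 0.921 in PV. The intervals of the libraries overlapped in C-EC, in S and S2 together and in PV, so the rise was not seen there. The makeup of the receptor set thus differed between the libraries, with less Flt4 per Kdr and less Nrp2 per Nrp1.

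**Figure D2:**
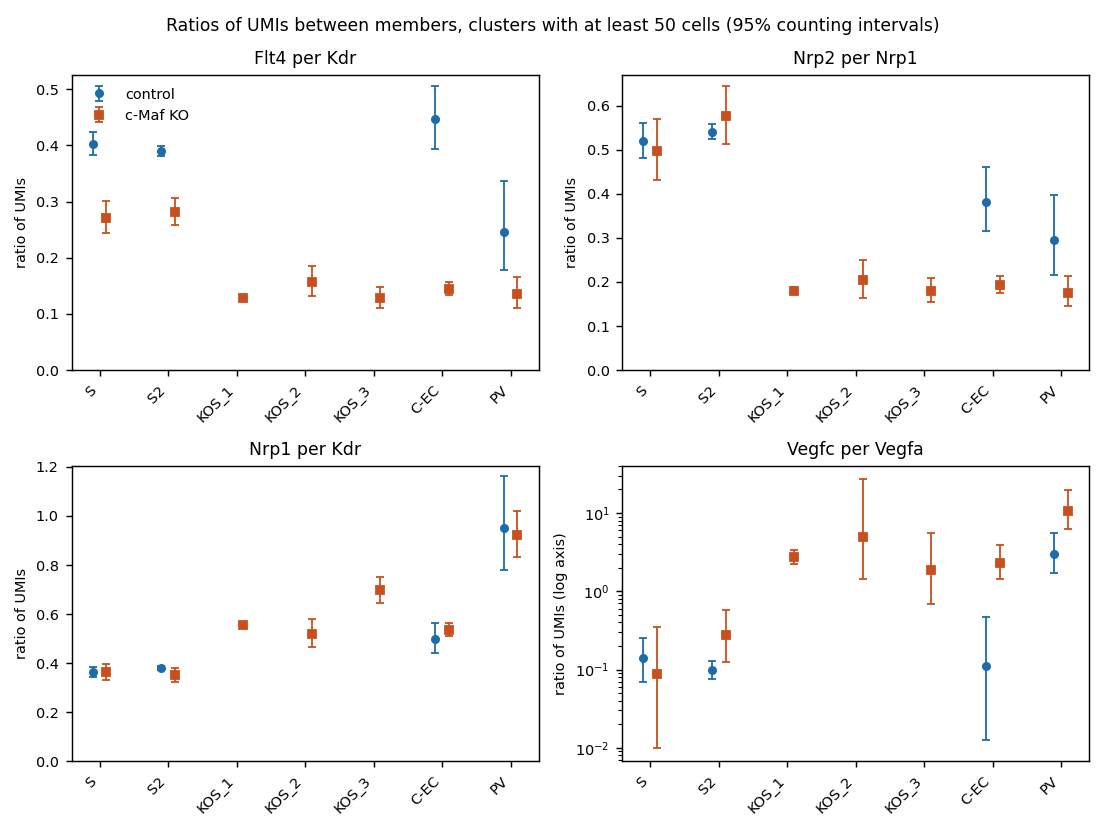
Ratios of UMIs of 2 members (y axis, log axis for Vegfc per Vegfa) in each endothelial cluster with at least 50 cells in that library (x axis). Circles are control, squares c-Maf KO and bars exact binomial 95% intervals. In the c-Maf KO library Flt4 per Kdr is 0.271 and 0.281 in S and S2 and 0.128 to 0.156 in the KOS clusters, while Nrp2 per Nrp1 is 0.496 and 0.576 in S and S2 and 0.180 to 0.203 in the KOS clusters.

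The 336 c-Maf KO cells in clusters S and S2 retained Maf transcripts and offered a comparison inside 1 library. In S2 Maf had 2327 CPM in the control and 1998 CPM in the c-Maf KO library, against 9.32 CPM in KOS_1. Between the libraries S2 had 0 members lower and 1 higher, with 7.88% of 10012 genes lower and 6.68% higher. The higher member was Vegfc on 62 and 10 UMIs, at a log2 ratio of 1.02 whose interval (-0.17 to 1.93) spans equality. Kdr (2417 and 2439 CPM), Nrp2 (497 and 492) and Vegfb (65.6 and 64.8) were close in S2 of both libraries, with log2 ratios of 0.01, -0.01 and -0.01. Others were less close, with Flt4 at 941 and 685 CPM (log2 ratio -0.46, -0.57 to -0.34), Vegfa at 53.2 and 37.0 (-0.50, -1.05 to -0.04) and Flt1 at 1009 and 858 (-0.23, -0.34 to -0.13). The control values pool both mice, while 0 c-Maf KO cells of S2 were male-type (by the rule given below). Among female-type S2 cells (480 control and 111 c-Maf KO), Kdr was less close, at 2033 CPM (1992 to 2076) and 2426 CPM (2329 to 2527). In these cells Nrp2 had 432 and 493 CPM and Vegfb 67.7 and 63.9.

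Against S2 of the same c-Maf KO library, KOS_1 had 6 members lower and 1 higher, where 21.5% of 10395 genes were lower and 15.5% higher. These clusters were drawn by the authors from the same cells, so the difference is a description. Kdr had 2439 CPM in S2 and 1540 in KOS_1 (log2 ratio -0.66), Flt1 858 and 533 (-0.69) and Flt4 685 and 198 (-1.79). Nrp1 had 854 and 856 CPM (0.00), while Nrp2 had 492 and 154 (-1.68). Vegfa had 37.0 and 8.75 CPM (-2.10), Vegfb 64.8 and 32.8 (-0.99), and Vegfc 10.3 and 24.0 (1.16). The 5 members lower between the libraries were lower here too, together with Kdr. Flt4 per Kdr UMI in S and S2 together was 0.391 (0.384 to 0.399) in the control and 0.277 (0.259 to 0.296) in the c-Maf KO library, between the control value and the 0.130 of the KOS clusters. Nrp2 per Nrp1 UMI was 0.538 and 0.541 in S and S2 of the 2 libraries.

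Vegfa, the ligand of Kdr and Flt1 (chromosome 17, from 46016993 to 46032369, minus strand), was low in endothelial cells and had the lowest ratio of the members. It had 743 control and 232 c-Maf KO UMIs, or 45.8 and 10.3 CPM, a log2 ratio of -2.16 (-2.38 to -1.94). Control levels were 53.2 CPM in S2, 39.2 in PV, 28.2 in C-EC and 25.2 in S, and neighbours in this order had overlapping intervals. The c-Maf KO levels were 37.0 in S2, 24.4 in S, 13.4 in PV, 8.75 in KOS_1, 8.67 in KOS_3, 7.13 in C-EC and 2.47 in KOS_2. Endothelial cells held 74.9% of all Vegfa UMIs of annotated cells in the control library and 48.9% in the c-Maf KO library. Hepatocytes were not a target of the sort, so these shares are of the annotated cells. Those include a hepatocyte-like cluster named H, with 10 Vegfa UMIs in the control library. The hepatocyte and stellate markers given above were also lower in c-Maf KO endothelial cells. Without the cells richest in other cells' transcripts the Vegfa call held. Leaving out such cells does not remove free RNA spread over all cells, and its part in the Vegfa level was not tested.

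Vegfb, a ligand of Flt1 (chromosome 19, from 6982473 to 6987651, minus strand), had 67.9 CPM in control and 38.5 CPM in c-Maf KO endothelial cells, a log2 ratio of -0.82 (-0.95 to -0.69). Its control levels were 87.8 CPM in C-EC, 77.9 in S, 65.6 in S2 and 29.9 in PV, and those of the c-Maf KO library 68.9 in S, 64.8 in S2, 50.2 in KOS_2, 49.9 in C-EC, 32.8 in KOS_1, 24.8 in KOS_3 and 23.3 in PV. Neighbouring clusters in these orders overlapped, except S2 and PV in the control and C-EC and KOS_1 in the c-Maf KO library. Endothelial cells held 67.8% of Vegfb UMIs in the control and 64.0% in the c-Maf KO library.

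Vegfc, the ligand of Flt4 (chromosome 8, from 54077606 to 54187096, plus strand), was the 1 member called higher. It had 128 control and 597 c-Maf KO UMIs in endothelial cells, or 7.88 and 26.4 CPM, a log2 ratio of 1.74 (1.47 to 2.03). In sinusoidal clusters alone it had 75 and 378 UMIs, or 4.95 and 21.0 CPM (2.08, 1.73 to 2.46). PV had the highest level in both libraries, at 117 CPM in control (87.5 to 154) and 144 CPM in c-Maf KO cells (123 to 168). Of the other c-Maf KO clusters KOS_1 followed at 24.0 CPM (21.5 to 26.7), then C-EC at 16.5 (12.6 to 21.4), KOS_3 at 16.1, KOS_2 at 12.3, S2 at 10.3 and S at 2.12, on 2 UMIs. KOS_1 did not overlap PV or C-EC, and from C-EC on each cluster overlapped its neighbours. In PV, where Vegfc was most abundant, the log2 ratio between the libraries was 0.29 (-0.17 to 0.78) and passed in neither direction.

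Vegfc per Vegfa UMI was 0.172 (0.142 to 0.208) in control and 2.57 (2.21 to 3.01) in c-Maf KO endothelial cells. In PV it was 3.0 and 10.7, in S and S2 together 0.105 and 0.203, and in the KOS clusters together 2.75 (2.25 to 3.38). As in PV, the KOS clusters held more Vegfc than Vegfa UMIs, while S and S2 of both libraries held fewer.

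Pgf, a ligand of Flt1 (chromosome 12, from 85166635 to 85177790, minus strand), had 0 UMIs in control endothelial cells and 14 in c-Maf KO endothelial cells, or 0.619 CPM. A count of 0 allows up to 0.185 CPM in the control sum (3 counts), and the c-Maf KO interval was 0.338 to 1.04 CPM, on too few UMIs for a call. The B lineage clusters B1, B2 and B3 held more Pgf, at 2.63 and 1.23 CPM, and the B lineage markers found in endothelial cells were 51.7 and 120 CPM in the 2 libraries. The endothelial Pgf level was not read as expression, and the source of these UMIs was not tested. The 14 UMIs lay in 14 cells, spread over 7 clusters with 1 to 5 UMIs each. Vegfd, the remaining ligand of Flt4, had 1 UMI in each library's endothelial cells.

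The comparison was repeated inside each endothelial class. In sinusoidal cells (2803 control and 2448 c-Maf KO) 5 members were lower and 1 higher, as in all endothelial cells, where 15.7% of 11519 genes were lower and 13.7% higher. In C-EC (89 and 408 cells) 4 members were lower (Flt1, Flt4, Nrp2 and Vegfb) and Vegfc was higher, on 2 control and 58 c-Maf KO UMIs, where 19.4% of 7961 genes were lower and 8.72% higher. Vegfa had 18 and 25 UMIs in C-EC, under the minimum, at 28.2 and 7.13 CPM. Kdr in C-EC had 1258 and 1215 CPM, a log2 ratio of -0.05 (-0.16 to 0.06). Without cells holding a UMI of a cycling marker, C-EC kept too few UMIs for any call.

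**Figure D3:**
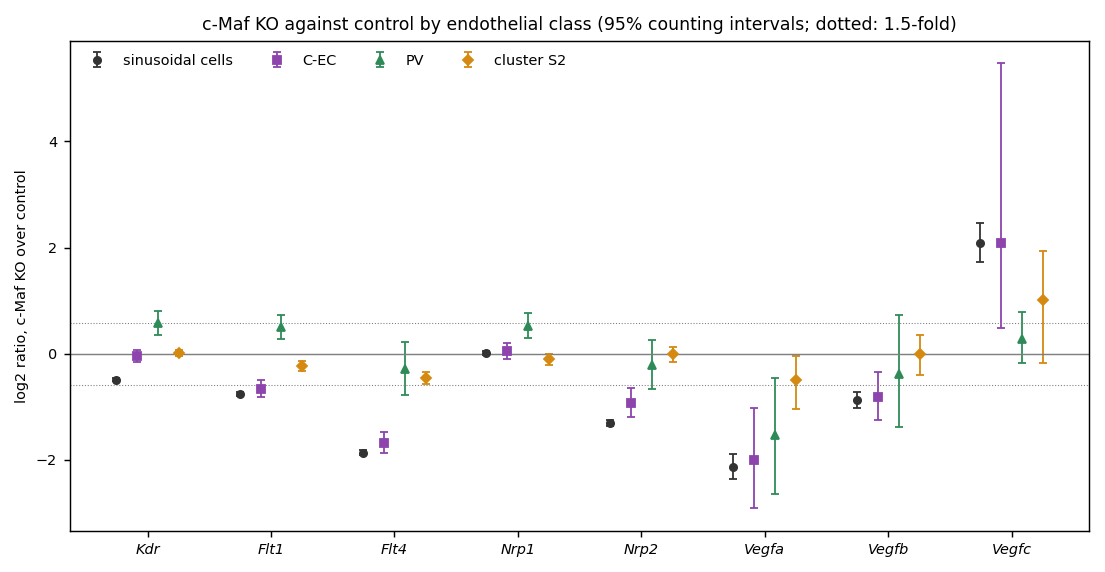
Log2 ratio, c-Maf KO over control (y axis), of the 8 members with at least 50 endothelial UMIs (x axis) in sinusoidal cells, C-EC, PV and cluster S2, with exact conditional binomial 95% intervals as bars and dotted lines at 1.5-fold. Flt4 is lowest in sinusoidal cells (-1.86) and C-EC (-1.68) and near 0 in PV (-0.29), and Kdr, Flt1 and Nrp1 have positive ratios in PV (0.58, 0.49 and 0.53).

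Large vessel cells (PV, 56 control and 135 c-Maf KO cells) had 0 of 6 members lower and 0 higher, where 8.04% of 5063 genes were lower and 9.9% higher. Kdr had 477 CPM in control and 713 CPM in c-Maf KO cells (log2 ratio 0.58, 0.36 to 0.81), Flt1 488 and 689 (0.49, 0.28 to 0.72) and Nrp1 454 and 656 (0.53, 0.30 to 0.77). Each stayed just under 1.5-fold, with intervals above equality. Among PV cells of the female mouse (by the rule given below) the ratios were 0.84 for Kdr, 0.67 for Flt1 and 0.75 for Nrp1, on 41 control and 87 c-Maf KO cells. Among those of the male mouse, on 9 and 30 cells, they were -0.14 for Kdr (-0.68 to 0.48), -0.21 for Flt1 (-0.71 to 0.36) and 0.10 for Nrp1 (-0.45 to 0.74), with intervals that span equality. Flt4 had 117 and 96.7 CPM (-0.29, -0.77 to 0.23) and Nrp2 134 and 115 (-0.22, -0.67 to 0.26), with intervals that span equality. Maf fell here too, from 228 to 39.4 CPM. Female-type c-Maf KO PV cells held 44 Maf UMIs in 7 cells, 33 of them in 1 cell, and male-type ones held 0. Vegfa had 17 and 15 UMIs, under the minimum, at 39.2 and 13.4 CPM.

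The cluster PV was not uniform. Lymphatic markers summed to 928 CPM in control and 122 CPM in c-Maf KO PV cells, against 4.28 to 24.7 in the other endothelial clusters, and stellate and mesenchymal markers to 1106 and 373 CPM. Ccl21a, a lymphatic chemokine, had 303 UMIs in 4 control cells, and Prox1, the transcription factor of lymphatic fate, 27 UMIs in 8. At least 2 UMIs of Prox1, Pdpn, Ccl21a and Mmrn1 were found in 10 control and 7 c-Maf KO cells. The 10 control cells held 20 of the 51 Flt4 UMIs of PV (219 CPM) and 24 of the 58 Nrp2 UMIs (263 CPM). Without such cells, a choice made after seeing the data, the log2 ratios were 0.51 for Kdr (0.28 to 0.76), 0.23 for Flt1 (0.01 to 0.46), 0.26 for Nrp1 (0.03 to 0.49) and -0.01 for Flt4 (-0.59 to 0.64). Flt4 then had 90.4 and 90.6 CPM in PV, and Flt4 per Kdr UMI was 0.176 (0.116 to 0.259) and 0.124 (0.0990 to 0.153).

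Vegfc in PV was found away from cells with Rspo3, a Wnt agonist of the central vein. In the control library 0 of the 51 Vegfc UMIs lay in the 5 cells with a Rspo3 UMI, and in the c-Maf KO library 2 of the 161 lay in 21 such cells (10.4 CPM, against 172 CPM in the 114 cells without). The count of 0 in 5 control cells allows up to 62.2 CPM. Cells with a UMI of Gja5, a connexin of arteries, had 217 CPM of Vegfc in the control (30 UMIs in 15 cells) and 200 CPM in the c-Maf KO library (76 UMIs in 47 cells), against 71.0 and 115 CPM in cells without. For Sox17, Gja4 and Vwf the levels of Vegfc with and without the marker lay closer in the c-Maf KO library. There 1 cell with 23 Vegfc UMIs lay in each set without the marker. With and without a UMI of Sox17 Vegfc had 186 and 76.9 CPM in the control but 145 and 142 in the c-Maf KO library. For Gja4 the levels were 168 and 78.0 against 158 and 120, and for Vwf 161 and 73.8 against 146 and 135. Ltbp4 separated Vegfc more in the c-Maf KO library, at 152 and 47.1 CPM (4 UMIs in the 17 cells without), against 119 and 108 in the control. For Selp the order turned, from 141 and 113 CPM in the control to 119 and 154 in the c-Maf KO library. A single c-Maf KO cell held 23 of the 161 UMIs. It carried no UMI of Gja5, Sox17, Gja4, Vwf or Selp. It was among the 7 cells with lymphatic transcripts, which held 30 of the 161 (521 CPM). Its 23 UMIs were part of the 66 in cells without Sox17, the 49 without Gja4 and the 30 without Vwf. Levels by marker without this cell were not computed, so the closer levels are not read as a loss of separation. Without the cells with lymphatic transcripts Vegfc in PV had 131 and 124 CPM, so that its log2 ratio turned from 0.29 to -0.10 (-0.58 to 0.44). Cells with a marker UMI may be deeper, and the values are a description of cells within 1 cluster.

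The pooled mice were told apart in part by sex-linked transcripts. Endothelial cells that held Xist but no UMI from 4 Y-linked genes are called female-type (772 control and 1692 c-Maf KO), and cells with the reverse male-type (846 and 328). Of the c-Maf KO cells in S and S2, 247 were female-type and 0 male-type. For Flt4, female-type cells had 782 CPM in control and 242 CPM in c-Maf KO (log2 ratio -1.69), and male-type cells 948 and 189 CPM (-2.32). For Kdr, female-type cells had 1814 and 1616 CPM (-0.17, -0.20 to -0.13), and male-type cells 2596 and 1214 CPM (-1.10, -1.15 to -1.04). The 6 calls held in both types, and Kdr passed the rule in male-type cells alone. Nrp1 had 748 and 857 CPM in the female-type set (0.20, 0.15 to 0.24) but 958 and 781 CPM in the male-type set (-0.30, -0.37 to -0.23).

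Within female-type cells, Flt4 per Kdr UMI was 0.433 (0.418 to 0.448) in control S and S2, 0.280 (0.261 to 0.299) in c-Maf KO S and S2 and 0.125 (0.120 to 0.131) in the KOS clusters. Male-type cells had 0.366 in control S and S2 and 0.153 in the KOS clusters. For Nrp2 per Nrp1 UMI the same female-type sets gave 0.538, 0.538 and 0.182, and the male-type sets 0.547 and 0.187. In female-type cells, S and S2 of the c-Maf KO library thus had the Nrp2 per Nrp1 of control cells. Their Flt4 per Kdr lay between those of control and KOS cells. The female-type cells of the 2 libraries come from different mice, so only sex was held alike in this comparison.

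Blood cells also held UMIs of the members. A part of these UMIs sat in a few cells that carried many endothelial transcripts, as in Kupffer cells (cluster K), where Kdr had 306 CPM in control and 186 CPM in the c-Maf KO library. Without cells with 2 or more UMIs of Ptprb, Egfl7, Tie1 and Emcn, a filter chosen after seeing the data, Kdr in K was 21.5 and 13.1 CPM. After this filter 11 blood clusters had at least 50 cells in both libraries, and 1.02% to 15.8% of the cells of a cluster had been left out. The remaining values are given below, and B lineage clusters B1, B2 and B3 serve as background.

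Nrp1 was highest in 3 blood clusters of both libraries. It had 79.9 CPM in control (65.1 to 97.1) and 94.2 CPM in c-Maf KO (76.4 to 115) in the cluster named CMP, whose marker sums were those of plasmacytoid dendritic cells. It had 55.3 and 74.8 CPM in Kupffer cells and 51.2 and 61.8 CPM in Leukocytes_1. A Nrp1 UMI was found in 46.7% and 42.6% of CMP cells, against 1.55% and 2.62% of B lineage cells. Flt1 had 28.7 CPM (21.0 to 38.3) and 25.5 CPM (19.0 to 33.4) in Leukocytes_1, and no more than 8.87 CPM in the other 10 clusters. Nrp2 had 19.0 and 19.7 CPM in Kupffer cells and 9.99 and 10.3 in Leukocytes_1. Intervals of the 2 libraries overlapped for each of these levels.

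Kdr had 10.5 to 27.3 CPM in the 3 control B lineage clusters and 23.7 CPM (16.0 to 33.9) in control CMP. In c-Maf KO CMP cells it was 41.7 CPM (30.2 to 56.2), on 43 UMIs in 28 of 136 cells, against 11.5 to 18.5 CPM in the B lineage clusters of that library. Flt4 was at 13.9 CPM (9.60 to 19.6) in control and 2.62 CPM (0.318 to 9.48) in c-Maf KO Kupffer cells, against 7.10 to 13.1 and 1.89 to 3.34 CPM in the B lineage clusters. The Kupffer interval overlapped those of B1, B2 and B3 in each library, and the level was not read as expression.

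Vegfa in blood cells was found in C1, a cluster with B lineage markers, at 21.3 CPM (15.8 to 28.0) in control and 12.1 CPM (9.24 to 15.6) in the c-Maf KO library, intervals that do not overlap. Neutrophils had 17.0 and 14.6 CPM. In the cluster named CLP, over all its cells, Vegfa had 50.5 CPM (29.4 to 80.9) on 17 UMIs in control and 38.1 CPM (27.4 to 51.7) on 41 UMIs in c-Maf KO cells. CLP thus stood beside S2 at the top of the Vegfa order in both libraries, with overlapping intervals. Vegfb had 26.9 and 29.1 CPM in CMP, 26.3 and 30.1 in C1 and 2.34 and 3.86 in neutrophils. Pgf had 20 UMIs in 831 control B3 cells and 11 in control C1.

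**Figure D4:**
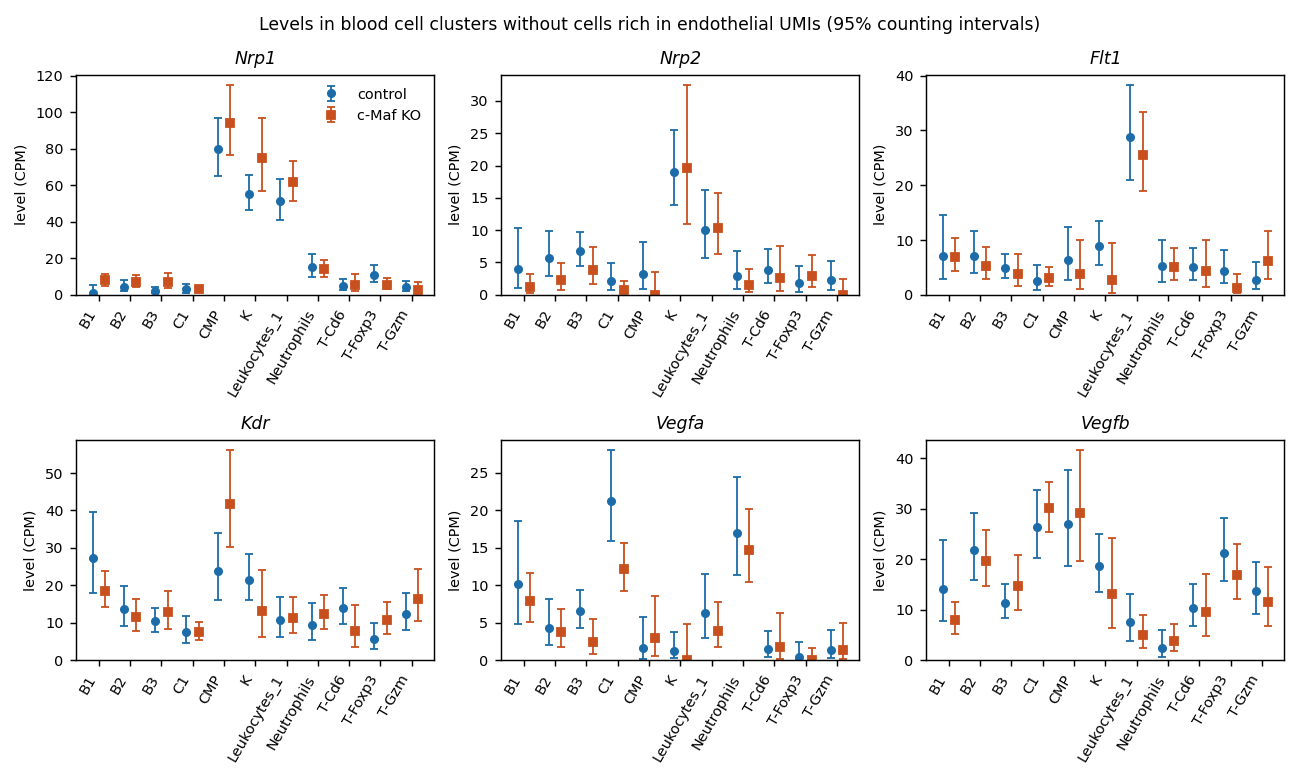
Levels of 6 members in CPM (y axis) in the 11 blood cell clusters with at least 50 cells in both libraries (x axis), without cells rich in endothelial UMIs. Circles are control, squares c-Maf KO and bars exact Poisson 95% intervals. Nrp1 is high in CMP, K and Leukocytes_1 (51.2 to 94.2 CPM), Flt1 in Leukocytes_1 (25.5 and 28.7 CPM) and Vegfa in C1 and neutrophils (12.1 to 21.3 CPM).

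Other genes of the pathway were taken from a list of 84 genes in 8 classes, of which 76 had at least 50 UMIs in endothelial cells. Of these 76, 11 were higher (14.5%) and 19 lower (25.0%), against 14.4% and 15.9% of all genes, and the median log2 ratio was -0.24. The semaphorins and plexins that share the neuropilins had 5 of 8 lower and 0 higher, with a median of -0.73. Sema3d, a secreted semaphorin, had 13.1 CPM in control and 1.95 CPM in c-Maf KO cells (-2.74, -3.26 to -2.28), and Sema3c had 5.11 and 2.03 (-1.32). The plexin receptor genes Plxnd1 (695 and 407 CPM), Plxna4 (45.6 and 25.1) and Plxna1 (15.2 and 9.42) were lower too. In PV the log2 ratio was 0.80 for Plxnd1, against -0.68 for Plxna4, -0.91 for Plxna1, -2.70 for Sema3d and -1.97 for Sema3c. Plxna2 (133 and 103 CPM), Sema3f (135 and 116) and Sema3g (1.29 and 1.37) passed in neither direction.

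Among proteases that activate VEGF-C, Pcsk5 was higher, from 1.72 to 3.71 CPM, with log2 ratios of 2.03 in sinusoidal cells, -0.87 in C-EC and -0.85 in PV, while Furin (51.7 and 43.9) and Pcsk7 (38.1 and 35.1) passed in neither direction. Of 10 receptor partners 1 was higher (10%) and 2 lower (20%), against 14.4% and 15.9% of all genes. Dab2, an endocytic adaptor, had 668 and 191 CPM (-1.81, -1.86 to -1.76), and Ptprb, the endothelial phosphatase VE-PTP, had 2043 and 888 CPM (-1.20). Of 24 kinases and adaptors 2 were higher (8.33%) and 6 lower (25%). Prkcb, a protein kinase C isoform, had 23.1 and 5.13 CPM (-2.17), and Pik3r1, the regulatory subunit of PI3 kinase, 123 and 37.1 (-1.73). These falls were not seen in PV. The log2 ratios there were 0.18 for Dab2, 0.48 for Ptprb, 1.30 for Prkcb and 0.04 for Pik3r1. Of 2 further kinases of the list, Prkca, another protein kinase C isoform, was higher at 5.73 and 19.3 CPM (1.75, and 1.52 in PV). Prkd1, a protein kinase D, was higher at 0.801 and 3.62 CPM (2.13, and 0.22 in PV).

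Of 17 genes that VEGF signalling is known to induce, 6 were higher (35.3%) and 3 lower (17.6%), against 14.4% and 15.9% of all genes. Their median log2 ratio was 0.15. Nr4a1, an immediate early nuclear receptor, had 5.67 CPM in control and 39.3 CPM in c-Maf KO cells (2.79, 2.48 to 3.12), the highest ratio of the list. Immediate early genes also respond to tissue dissociation, whose part in the result was not tested. Itgb3, an integrin subunit that partners with KDR, had 7.82 and 23.0 CPM (1.55). The log2 ratios in PV were -1.02 for Itgb3 and 0.84 for Nr4a1. Of the oxygen sensing genes upstream of Vegfa 1 of 6 was lower (16.7%). Of 8 hypoxia targets 2 were lower (25%) and 1 higher (12.5%). These counts of few genes are not read as particular to their classes.

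**Figure D5:**
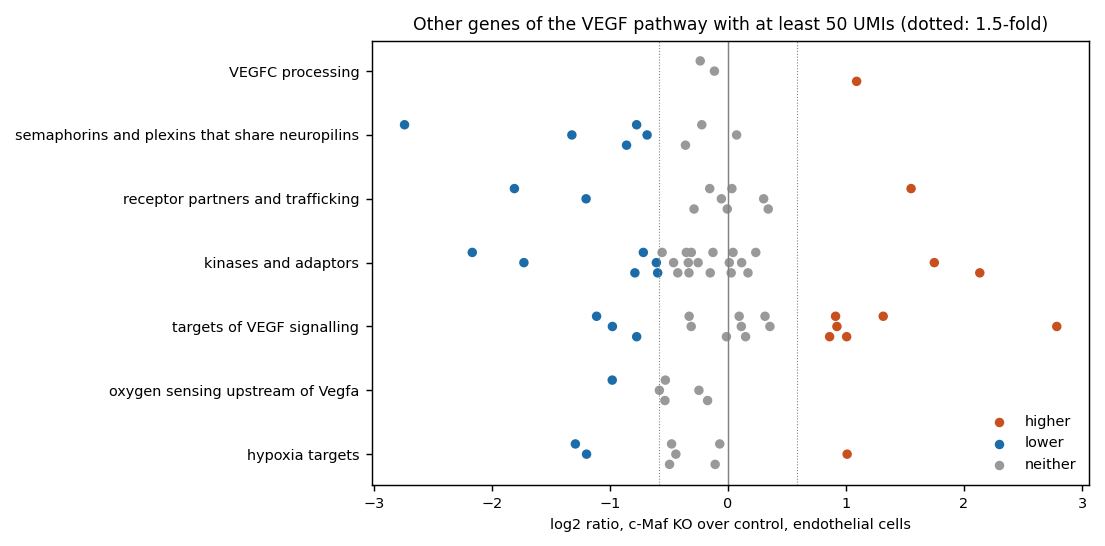
Log2 ratio in endothelial cells, c-Maf KO over control (x axis), of the 76 pathway genes with at least 50 UMIs, by class (y axis), 1 point a gene, with dotted lines at 1.5-fold. Points in the class of semaphorins and plexins lie to the left of 0 except 1, and the targets of VEGF signalling lie on both sides.

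The genes whose levels followed each member most closely were taken over 39 units with at least 50 cells, each a cluster in 1 library. They had the highest Pearson correlation of log2(CPM + 1) among 9918 genes. Of the 39 units 11 were endothelial, so these correlations span endothelial and other cells. The points share libraries and depth, so the values are descriptions with no test. Kdr was followed by Gpihbp1, Hspg2 and Robo4 (0.987 each), Flt1 by Ptprb (0.985), Aqp1 and Meis2, and Flt4 by Igfbp7 (0.978), Clec4g (0.978) and Stab1 (0.973). Nrp1 was followed by Cdc42bpb (0.975), Dock1 and Bmpr2, and Nrp2 by Plekhg1 (0.972), Igfbp7 and C1qtnf1. Vegfc was followed by Edn1 (0.877), Zfp521 and Mn1, Vegfb by Camta1 (0.871), Arl2 and Pgrmc2, and Vegfa by Pde2a (0.791), Pdcl and Plscr3. Over the 11 endothelial units alone, Flt4 was closest to Stab2 (0.994), a sinusoidal scavenger receptor, and Vegfc to Adgrg6 (0.983). Among the members the endothelial correlation was 0.93 for Flt4 with Nrp2, 0.35 for Flt4 with Nrp1 and -0.82 for Flt4 with Vegfc.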

How the data were processed

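Endothelial and hematopoietic cells were measured by droplet sequencing in 1 control and 1 c-Maf KO library. The authors deposited whole UMI counts per gene and barcode, with 9038 and 9058 barcodes, and cluster names for 7669 and 8166 cells, where per the file headers the resolution was 0.5. The authors also deposited each cell's percent of mitochondrial UMIs. The submitters' processing notes list Cell Ranger 4.0.0, Seurat 3.2.3 and mm10. The aligner's parameters, the kit and any removal of doublets by the authors: not given in the sources used here. Scrublet (scanpy 1.11.5) marked 1.67% and 1.85% of cells as doublets, which stayed in. UMIs were summed per cluster and library (Python 3.11.15). The 95% intervals are exact Poisson ones for levels, Clopper-Pearson for shares and conditional binomial for ratios. Log2 ratios had 0.5 UMI added to each sum. The script was tested on simulated data. The members, gene lists, markers and tests were chosen with earlier results of these data known. Named genes were the members, Maf, the first 3 pathway classes, the 4 highest and 4 lowest called pathway genes and the 3 genes most like each member. Ccl21a, Prox1, Rspo3, Gja5, Gja4, Sox17, Vwf, Ltbp4 and Selp were named after their values were seen. The alternatives were other scalings, size rules, minimums and cell sets, thinned cells and each type of pooled mouse.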

Additional observations from a re-analysis of the deposited data

Results flagged for a closer look

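Kdr and Flt1 moved in opposite directions in 2 kinds of endothelial cell, each with an interval that excludes equality. For Kdr the log2 ratio of the libraries (c-Maf KO over control) was -0.49 in sinusoidal cells and 0.58 in PV. For Flt1 it was -0.75 in sinusoidal cells, -0.66 in C-EC and 0.49 in PV. The ratio of Nrp1 was 0.20 in female-type endothelial cells but -0.30 in male-type ones. In male-type PV cells alone the ratios of Kdr and Flt1 were -0.14 (-0.68 to 0.48) and -0.21 (-0.71 to 0.36). Without PV cells with 2 or more lymphatic UMIs they were 0.51 (0.28 to 0.76) and 0.23 (0.01 to 0.46), so the Flt1 interval then lay close to equality. With 1 library a group the differences between these groups of cells were not tested.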

How the results depend on the processing

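No paired analysis was possible because each group has 1 library. In endothelial and sinusoidal cells the 6 calls (Flt1, Flt4, Nrp2, Vegfa and Vegfb lower, Vegfc higher) held in every alternative run except the 2-fold rule, where 3 members were lower (Flt4, Nrp2 and Vegfa). Without a minimum of UMIs, 2 members were higher in each, Vegfc and Pgf. Kdr passed as lower in male-type cells (-1.10), without S and S2 of the c-Maf KO library (-0.59) and without S of both libraries (-0.64), the last 2 chosen after seeing the data. Nrp1 kept the sign of its ratio in 11 of 19 alternatives. Scaling by the median of gene ratios moved the median of all genes from -0.08 to 0.05 and the share of genes called lower from 15.9% to 11.9%, and the 6 calls held. Of the pathway list 9 genes were lower at 2-fold and 6 higher in thinned cells. Apart from the median scaling, the shares of all genes called in these alternatives are not given here, so the counts are not read against other genes.

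C-EC and PV rest on fewer UMIs, which limits their calls. The counts below are given without the share of all genes called in the same run, and describe these members alone. In C-EC 1 member was lower at 2-fold, 0 were lower and 0 higher without cells with a cycling UMI, 0 were higher in male-type cells, and in thinned cells 2 were lower and 0 higher. In PV 1 member (Vegfa) was lower at a minimum of 20 UMIs, and with no minimum 1 was lower and 1 higher (Pgf). Kdr was higher in PV cells with at least 2000 UMIs (1 member), and in female-type cells 3 were higher and 1 lower. Without the top cell of each gene 2 were higher (Kdr and Nrp1), and in thinned cells 2 (Flt1 and Nrp1). The cause of these moves was not tested, apart from the fewer UMIs or cells that an alternative leaves. In endothelial cells, sinusoidal cells and C-EC, no ratio of a member called there in the main run changed its sign in any alternative. In PV, where the main run called 0 members, signs did change. Male-type cells gave -0.14 for Kdr, -0.21 for Flt1, -0.65 for Vegfc, 0.72 for Flt4 and 0.78 for Nrp2. Vegfb turned to 0.23 without PV cells with 2 or more lymphatic UMIs.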
